A study of Mus musculus with 23 samples.

Results

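Mouse embryonic stem (ES) cells without any Argonaute protein were compared with ES cells in which human Ago2 was the only Argonaute. The comparison was chosen as the deposited exon and intron columns of clones C62 and C86 against those of line E7, over all genes, and it uses 5 of the 23 samples of the study. The clones have the genotype Blm-/-;Ago1,2,3,4-/-;CreERT2 and E7 has Blm-/-;Ago1,2,3,4-/-;CreERT2;hAgo2fl. Both thus lack the 4 mouse Argonautes and Blm and carry CreERT2, and by the labels they differ in the hAgo2fl allele. E7 is 1 line with 3 libraries, and C62 and C86 are 2 clones with 1 library each, so the tests measure the spread of these libraries and clones. AB2.2 wild type (n = 2) and the line B9, Blm-/-;Ago1,3,4-/- (n = 2), are set beside them. All cells were grown on gelatin with serum and leukemia inhibitory factor, and strand-specific libraries were made from polyadenylated RNA.

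Argonaute proteins bind microRNAs, and the seed, bases 2 to 8 of the microRNA, pairs with sites mostly in the 3' UTR of messenger RNAs. The bound messenger is translated less and decays faster, so loss of Argonaute removes this repression. In ES cells the miR-290, miR-302 and miR-17 families share a related seed and repress inhibitors of the G1/S transition and Hippo kinases, while let-7, which Lin28a holds back, is low.

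The mature sequences below belong to families whose reported targets are described here, from RefSeq on GRCm38, 5′ to 3′, with bases 2 to 8 in capitals. The first 3 share 1 seed, miR-17-5p has it shifted by 1 base, and let-7a-5p stands for the let-7 family. Matches were searched for the shared seed of the first 3 and for that of let-7, and not for the shifted seed of miR-17-5p.
miR-294-3p, chr7:3220691-3220712, plus strand: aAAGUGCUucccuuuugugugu
miR-295-3p, chr7:3220815-3220837, plus strand: aAAGUGCUacuacuuuugagucu
miR-302b-3p, chr3:127545275-127545297, plus strand: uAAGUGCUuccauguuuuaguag
miR-17-5p, chr14:115043684-115043706, plus strand: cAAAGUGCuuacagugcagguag
let-7a-5p, chr13:48538239-48538260, minus strand: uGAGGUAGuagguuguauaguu

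Seed matches of miR-290 and miR-302 (AGCACTT, or GCACTTA, which overlap where both are present) were searched on the sense strand of the longest 3' UTR of each gene in GENCODE M21, whose build GRCm38 is mm10. They were found in 21.4% of the 13107 tested genes that had such a UTR. Matches of let-7 were CTACCTC or TACCTCA. The sites below belong to the genes at the centre of the sections on microRNA targets, with the match in capitals. A match is a description of the letters and not a measured binding site.
Lats2 site 1, chr14:57699592-57699617, minus strand: ccgcctccgtacccaaAGCACTTgct
Rbl2 site 1, chr8:91123815-91123840, plus strand: tgtatttttcaataaAGCACTTAtaa
Cdkn1a site 1, chr17:29099812-29099837, plus strand: atcctcagacctgaatAGCACTTtgg
Cdkn1a site 2, chr17:29100485-29100510, plus strand: taccgtgggtgtcaaAGCACTTAgtg
Lefty1 site 1, chr1:180938198-180938223, plus strand: ctgcactgtatgcgaAGCACTTAcat
Lefty2 site 1, chr1:180897902-180897927, plus strand: ccatcacccagtttaAGCACTTAcat
Lin28a site 1, chr4:134005186-134005211, minus strand: gcacagcctgttgaaCTACCTCAttt
Lin28a site 2, chr4:134004548-134004573, minus strand: gagatcgccacaaacCTACCTCActg

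Values are normalised reads per library, worked out from the deposited group means, and are not divided by gene length. Exon depth was 23.5, 20.3 and 17.4 M reads in E7 and 53.7 and 19.5 M in the clones, and libraries are numbered by depth because the columns do not say which is which. The clone libraries stood apart from each other: 3035 of 13194 genes (23%) differed by over 2-fold between them, against 1323 to 2276 between pairs of E7 libraries. Clone library 1 had 0 reads of Eif2s3y and Uty, where 3 reads would be 1.45 normalised reads, while clone library 2 had 616 and 324. The clones also deviated in opposite directions with 3' UTR length: over 5 bins from the shortest to the longest UTRs the median change against E7 went from -0.08 to 0.14 in library 1 and from 0.25 to -0.18 in library 2. Results are therefore given for each clone library, and the counts without each of them.

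Ago1 (ENSMUSG00000041530, chr4:126435012-126468583) had 0 reads in all E7, clone and B9 libraries and 3514 and 4693 in wild type. Ago2, the Argonaute that can slice its target, had 3578, 5250.1 and 6799 in E7 and 5199 and 6439 in the clone libraries (a log2 change of 0.20, SE 0.29, adjusted p = 0.723). Ago3 had 1378, 1963 and 1227 in E7 and 2146 and 578 in the clones. Ago4 had 8.09, 18.4 and 6.39 against 25.1 and 25.3. None of these 3 genes passed the test (adjusted p = 0.637 for Ago3 and 0.440 for Ago4), and reads over the parts of a gene that were not deleted check nothing. The tables hold no row for the human transgene. Blm, the RecQ helicase lost in both groups, had 2383, 3058 and 2644 in E7 and 2042 and 1095 in the clones (adjusted p = 0.147).

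Transcripts of the ES cell regulators were abundant in both groups. Nanog had 32375, 30826 and 42946 in E7 and 45578 and 23255 in the clones, Sox2 31507, 32661 and 37039.8 against 39191 and 31553, and Sall4 14710.5, 13849 and 10294 against 12936 and 14515. The groups overlapped in these 3 genes. Pou5f1 and Esrrb could be read only as deposited means, which were 0.720 and 0.862 times as high in the clones as in E7, and Zfp42 overlapped (a log2 change of -0.16, SE 0.27, adjusted p = 0.767).

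Without Argonaute, 94 genes had higher and 104 lower exon reads than E7 among the 13194 genes tested, which is 1.50% of them (limma, adjusted p below 0.05; 0.712% higher and 0.788% lower). All 198 had both clone libraries above or below the 3 E7 libraries, an arrangement seen in 32.9% of all tested genes. The changes were large: the median was 1.81 on the log2 scale among the rises and -2.29 among the falls, and 33 rises and 61 falls exceeded 4-fold. The median over all genes was 0.02. In the same fit E7 itself differed from wild type in 601 genes (4.56%) and from B9 in 9 (0.0682%). At an unadjusted p below 0.05 there were 2671 genes (20.2% of those tested, with 10.3% higher and 9.91% lower), the share to set beside such counts in the lists. The count moved with single libraries. It was 62 without clone library 2, of which 38 were among the 198, and 2141 without clone library 1, where the remaining clone library is assumed to vary like the other groups. It was 69, 16 and 222 without E7 libraries 1, 2 and 3.

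A core of 15 genes passed the test in all 5 fits that left out 1 library, with 13 lower and 2 higher in the clones. Those lower were Gap43, Pla2g1b, Insm1, Klk8, Lin28a, Dll1, Smarca1, Armcx2, Tro, Glipr2, Usp44, Cd276 and Slc16a3, and those higher were Lats2 and Tbc1d9. This core was picked after its values were seen.

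Lin28a (ENSMUSG00000050966, chr4:134003330-134018841), the RNA-binding protein that blocks let-7 maturation, had 17075, 14050.5 and 8029.8 normalised reads in E7 and 891 and 579 in the clones. Every clone library was below every E7 library, and the mean was 17.8-fold lower (a log2 change of -4.11, SE 0.32, adjusted p = 0.000552). Wild type had 21553 and 20642 and B9 24285 and 17764, and every E7 library was below all of these. Its longest 3' UTR holds both let-7 matches shown above.

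Gap43 (ENSMUSG00000047261, chr16:42248442-42340651), a growth cone protein of neurons, had 1022, 733 and 203 in E7 and 3.86 and 5.34 in the clones (a log2 change of -6.59, SE 0.61, adjusted p = 0.000974), the largest fall among the calls. The E7 libraries themselves spread over 5-fold, and none came near the clones. Insm1, a zinc finger factor of neuroendocrine cells, had 245, 488 and 815 in E7 against 36.7 and 13.3 in the clones (a log2 change of -4.31, SE 0.54, adjusted p = 0.00552). Dll1, a Notch ligand, had 172, 396 and 139 against 18.8 and 25.3 (a log2 change of -3.22, SE 0.46, adjusted p = 0.0101). Both clones lay below every E7 library in the 3 genes. Of 9 tested neuroectoderm markers Gap43 was the 1 called (0.788% of all genes fell), and the list's median was 0.00. Tubb3 had 5288, 2230.0 and 1753 in E7 and 4212 and 10981 in the clones, and Pou3f2 14.2, 4.60 and 23 against 66.6 and 32, with adjusted p of 0.176 and 0.258 (named after their values were seen).

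Pla2g1b (ENSMUSG00000029522, chr5:115466262-115474722), a secreted phospholipase A2, had 701, 506 and 445 in E7 and 14 and 33.3 in the clones (a log2 change of -4.58, SE 0.39, adjusted p = 0.000578). Klk8, a kallikrein serine protease, had 213, 205 and 99.7 against 11.6 and 5.34 (a log2 change of -4.20, SE 0.47, adjusted p = 0.00270). In both genes the highest clone library was far below the lowest E7 library.

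The next of the 12 largest falls were Nrsn2, Igsf10 and Tnni3. Nrsn2, a neurensin of nerve cells, had 78.9, 88.6 and 203 in E7 and 6.27 and 10.7 in the clones, a log2 change of -3.62. Tnni3, cardiac troponin I, had 84.9, 213 and 242 against 32.8 and 5.34 (-3.49). Igsf10, an immunoglobulin superfamily protein, had 203, 191 and 367 against 34.7 and 10.7 (-3.58). None of these had a clone library within the range of E7.

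Rasgrp2, an exchange factor for Rap and Ras, was even across E7 with 451, 467 and 456, while its clone libraries had 18.3 and 109 (-3.31). Spn (CD43, a leukocyte sialoglycoprotein) had 625, 437 and 258 against 35.7 and 50.7 (-3.25). Pou2f2, the factor Oct2 of B cells, had 99.1, 127 and 75.4 against 5.30 and 17.3 (-3.21). These calls lay outside the core: Tnni3 passed in 2 of the 5 fits that left out 1 library, Igsf10, Rasgrp2 and Pou2f2 in 3, and Spn and Nrsn2 in 4.

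Further genes of the core were lower by smaller steps. Smarca1, an ISWI chromatin remodelling ATPase on the X chromosome, had 509.7, 403 and 313 in E7 and 50.2 and 38.7 in the clones (a log2 change of -3.16, SE 0.35, adjusted p = 0.00270). Usp44, a deubiquitinase of the spindle checkpoint, had 633, 706 and 837 against 163 and 107. Cd276, a B7 family surface protein, had 1561, 1937 and 1949.9 against 293 and 455. Slc16a3, the lactate exporter Mct4, had 4406, 4819 and 3832 against 1166 and 1239, with a log2 change of -1.85. The X-linked genes Armcx2 and Tro had changes of -2.85 and -2.53, and Glipr2 of -2.46.

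Lats2 (ENSMUSG00000021959, chr14:57689662-57758388), a Hippo pathway kinase and reported target of miR-290 and miR-302, was a rise of the core. It had 514, 554 and 394 in E7 and 2679.8 and 3032 in the clones, 5.86-fold higher on the mean (a log2 change of 2.56, SE 0.27, adjusted p = 0.00270). The clone libraries lay close together and far above E7. Wild type had 257 and 215 and B9 205 and 182, below E7. Tbc1d9 (ENSMUSG00000031709, chr8:83165352-83272934), of the TBC domain family that acts on Rab GTPases, had 696, 509 and 1116 in E7 and 4761 and 5386 in the clones (a log2 change of 2.78, SE 0.31, adjusted p = 0.00270).

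**Figure D1:**
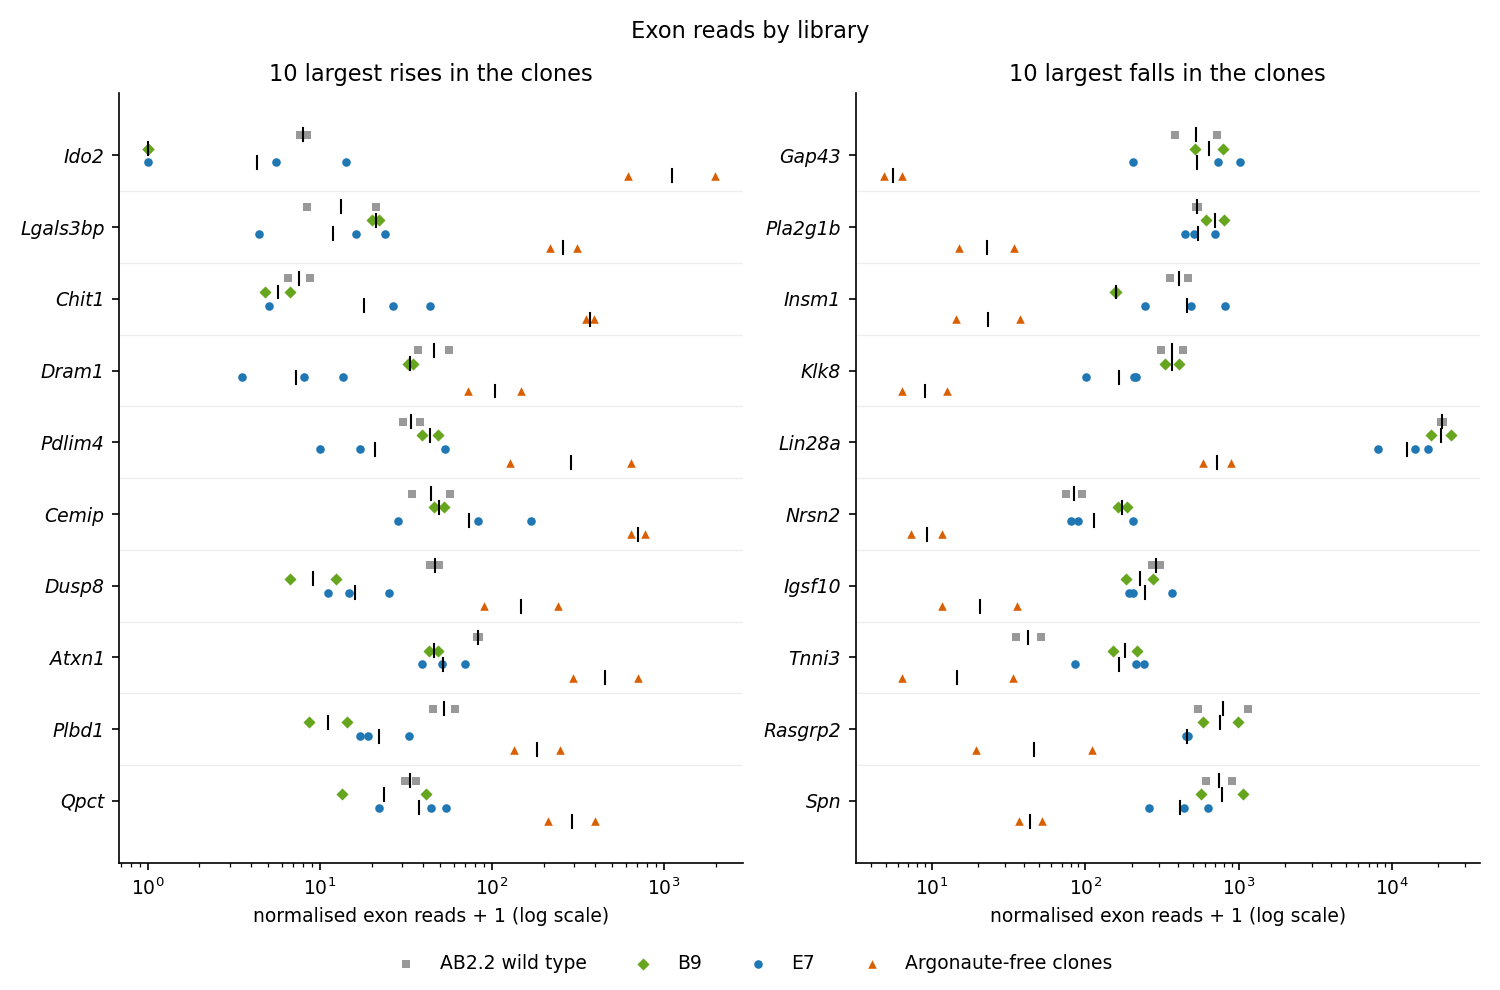
Normalised exon reads plus 1 of the 10 genes with the largest rise (left) and the 10 with the largest fall (right) in the clones against E7, on log axes, with 1 symbol per library and a black tick at the geometric mean of each group (AB2.2 wild type n = 2, B9 n = 2, E7 n = 3, clones n = 2). In all 20 genes the clone libraries lie outside the range of the E7 libraries, from Ido2 at the top left to Spn at the bottom right.

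Ido2 (ENSMUSG00000031549, chr8:24531892-24576333), an enzyme of tryptophan breakdown, had the largest rise. It had 13.1, 4.60 and 0 in E7 and 1977 and 618 in the clones, and at most 7.40 in wild type and 0 in both B9 libraries (a log2 change of 8.01, SE 1.08, adjusted p = 0.00837). Reads were thus near 0 in every library of the lines with an Argonaute and present in both clones. Because E7 was near 0, the size of the log2 change depends on the 1 read added before the log.

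Several other rises also began from a low level. Chit1, a chitinase, had 4.05, 42.6 and 25.6 in E7 and 353 and 392 in the clones (a log2 change of 4.37, SE 0.87, adjusted p = 0.0382). Lgals3bp, a secreted galectin-binding glycoprotein, had 15.2, 3.45 and 23 against 309.6 and 216 (a log2 change of 4.44, SE 0.78, adjusted p = 0.0269). Atxn1, a chromatin-bound repressor with 4 miR-290 and miR-302 matches in its 3' UTR, had 38.4, 50.6 and 69 against 707 and 293 (a log2 change of 3.13, SE 0.48, adjusted p = 0.0141). In these 3 genes both clones were above every E7 library, and Atxn1 passed in 4 of the 5 fits that left out 1 library, Chit1 and Lgals3bp in 2.

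Dram1, an autophagy regulator induced by p53, had 7.08, 12.7 and 2.56 in E7 and 146 and 72 in the clones, a log2 change of 3.82. Plbd1, a phospholipase B-like protein, had 18.2, 16.1 and 31.9 against 133 and 249 (3.05). Cemip, which takes part in hyaluronan breakdown, had 169, 27.6 and 81.8 against 773 and 646 (3.26). In each, both clones lay above every E7 library. Dram1 and Plbd1 passed in 2 of the 5 fits that left out 1 library and Cemip in 3.

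Dusp8, a phosphatase of MAP kinases, had 24.3, 13.8 and 10.2 in E7 and 239.7 and 89.4 in the clones, a log2 change of 3.19. Pdlim4, a PDZ and LIM domain protein of the actin cytoskeleton, had 9.10, 16.1 and 52.4 against 127 and 643 (3.77). Qpct, glutaminyl cyclase, had 21.2, 52.9 and 43.4 against 397 and 211 (2.95). Dusp8 and Qpct passed in 0 of the 5 fits that left out 1 library, so these calls needed all 5. Megf11, of the MEGF family of EGF-repeat proteins, had 147, 163 and 640.2 against 1439.5 and 2259.6 (2.85), and 1 E7 library of Megf11 was well above the others. Pdlim4 and Megf11 passed in 2 of those 5 fits.

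Of the keratins, the intermediate filament proteins of epithelia, 3 were called higher in the clones and others were not. Krt8 had 845, 488 and 865 in E7 and 2607 and 3103 in the clones (a log2 change of 2.00, SE 0.31, adjusted p = 0.0153), and Krt19 had 290.2, 207 and 230.0 against 1183 and 1658 (a log2 change of 2.54, SE 0.33, adjusted p = 0.00754). Krt17, named after its values were seen, had 875, 501 and 838 against 2462 and 2546 (a log2 change of 1.80, SE 0.32, adjusted p = 0.0269). Clone libraries were above all E7 libraries in the 3 genes, and each passed in 3 of the 5 fits that left out 1 library. Krt18, the partner of Krt8, had 234, 202 and 488 in E7 and 278 and 224 in the clones (adjusted p = 0.809), and Krt7 10.1, 20.7 and 58.8 against 27 and 25.3 (adjusted p = 0.920). Both overlapped E7 and were named after their values were seen. For Krt8 the level in the clones was close to that of wild type (3362 and 2042), and B9 had 421 and 393.

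Among 23 tested members of a list of reported targets of miR-290, miR-302 and miR-17, 2 rose (Lats2 and Rbl2) and 0 fell, against 0.712% and 0.788% of all genes. The list's median log2 change was 0.48 (0.49 in clone library 1 and 0.58 in library 2), against 0.02 over all genes (0.04 and 0.02). In 11 of the 23 both clones lay above all E7 libraries and in 1 below, against 17.6% and 15.2% of all tested genes. The median was 0.06 in introns over 20 members, against 0.01 over all genes. The list's members were chosen with earlier results of these data known.

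Rbl2 (ENSMUSG00000031666, chr8:91070057-91123844), the pocket protein p130 that holds cells in G1, had 589.6, 593 and 865 in E7 and 2527 and 1758 in the clones (a log2 change of 1.65, SE 0.28, adjusted p = 0.0252). It lies on chromosome 8, whose genes had a raised median in the clones, and with the chromosome's median taken out its change was 1.30 and did not pass (adjusted p = 0.0691). Cdkn1a, the inhibitor p21, had 1684, 2001 and 3379.8 in E7 and 5207 and 7236 in the clones, with no overlap, but did not pass the test (a log2 change of 1.45, SE 0.40, adjusted p = 0.103). Wild type had 1212 and 1944 reads of Cdkn1a, so E7 lay near or above it.

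Lefty1 and Lefty2, secreted antagonists of Nodal, each hold 1 miR-290 and miR-302 match. Lefty1 had 5248, 7622 and 10332 in E7 and 11504 and 40378 in the clones (a log2 change of 1.53, SE 0.45, adjusted p = 0.112), and Lefty2 5545, 12440.4 and 13518 against 13761 and 21194 (a log2 change of 0.81, SE 0.36, adjusted p = 0.239). The clones were above E7 in both genes, by a narrow margin in library 1, and neither gene passed. E7 was in turn above wild type, where Lefty1 had 3276 and 4294 and Lefty2 3121 and 4059.

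Other members of this list, named after their values were seen, had the same arrangement without passing. Casp2, a caspase, had 1165, 1012 and 1584 in E7 and 2595 and 2473 in the clones (adjusted p = 0.0644). Tgfbr2, the type 2 receptor of Tgf-beta, had 24.3, 73.6 and 89.4 against 255 and 160.1 (adjusted p = 0.128). Irf2, an interferon regulatory factor, had 12.1, 4.60 and 89.4 against 282 and 311 (adjusted p = 0.109), and its E7 library 3 was well above the other E7 libraries.

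**Figure D2:**
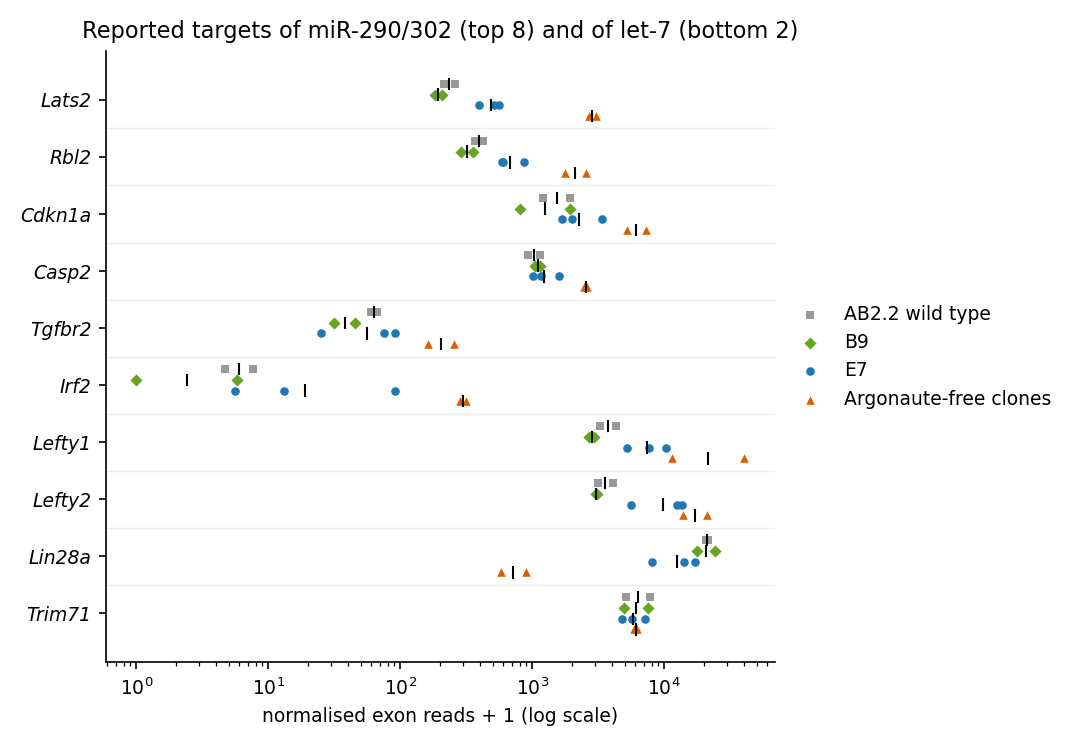
Normalised exon reads plus 1 (log axis) of 8 reported targets of miR-290 and miR-302 and 2 of let-7, with 1 symbol per library and a black tick at the geometric mean of each group (AB2.2 wild type n = 2, B9 n = 2, E7 n = 3, clones n = 2). The clones lie above E7 in the top 8 genes, most clearly in Lats2, below it in Lin28a, and among the E7 values in Trim71.

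Reported let-7 targets showed 1 call among 19 tested, the fall of Lin28a, where 0.788% of all genes fell and 0.712% rose. The list's median was -0.19. Trim71, a let-7 target with 6 matches in its longest 3' UTR, had 7106, 5734 and 4766 in E7 and 5889 and 6219 in the clones (a log2 change of 0.06, SE 0.27, adjusted p = 0.919). Both clones of Trim71 lay within the range of E7.

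Across all genes with a 3' UTR, those with at least 1 match of the miR-290 and miR-302 seed were slightly higher in the clones than those without, at like UTR length. Over 5 bins of equal size from the shortest to the longest UTRs the median log2 change was 0.11, 0.09, 0.09, 0.09 and -0.01 with a match and 0.06, 0.03, 0.01, 0.01 and -0.04 without. The same order held in each clone library in every bin, although the trend with length ran opposite ways in the 2 libraries. The change did not rise steadily with the number of matches, counted without the split by length. The median was 0.02 with 0 matches, 0.04 with 1, 0.05 with 2 and -0.04 with 3 or more. The last class had 159 genes with long UTRs (median 5267 bases), and lay at 0.21 in clone library 1 and -0.26 in library 2. These medians are descriptions with no test, and the split by length was added after the tables were examined. Among the rises, 23 of 94 (24.5%) had a match and among the falls 11 of 104 (10.6%), against 21.4% of tested genes. The falls also had shorter 3' UTRs, with a median of 917.5 bases, against 1243.5 in the rises and 1340 in genes not called, and the part of length in these shares was not tested.

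**Figure D3:**
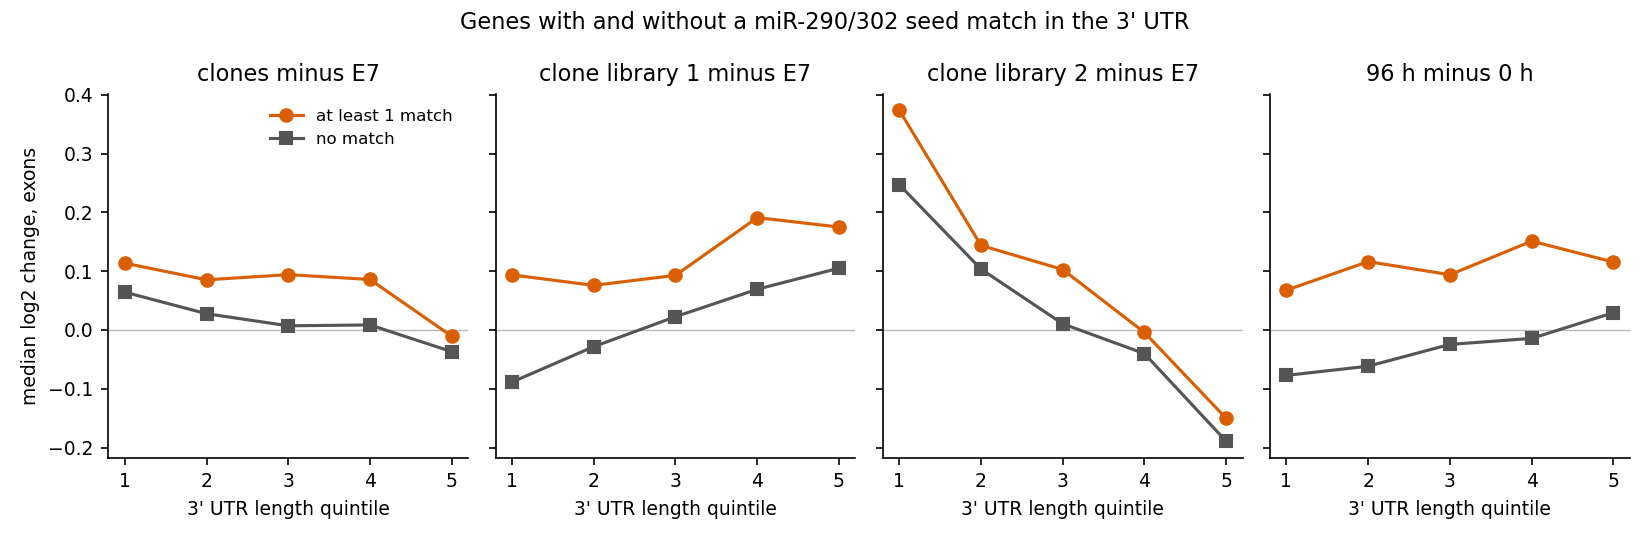
Median log2 change in exons of genes with at least 1 match of the miR-290 and miR-302 seed (circles) and without (squares) in each of 5 bins of equal size by 3' UTR length (1 shortest, 5 longest), for the clones against E7, each clone library against the E7 mean, and 96 h against 0 h without doxycycline. The circles lie above the squares in all 20 places, while the slope with length is upward in clone library 1 and downward in clone library 2.

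Genes for Argonautes, microRNA processing and silencing partners had 0 calls among 22 tested, with a median of 0.13 and 2 at an unadjusted p below 0.05. Of all genes 1.50% were called and 20.2% had such a p. Ago1 is among the 22 and, with 0 reads in E7 and the clones, could not be called. Cnot1, the scaffold of the Ccr4-Not deadenylase, had 16823, 13962 and 12954 in E7 and 19095 and 24061 in the clones. Ddx6, a helicase of messenger decay, had 11138, 14371 and 11215 against 11383 and 7885. Neither passed, and Cnot1 is on chromosome 8.

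Genes of the Tgf-beta network, named in the title of the study, gave 1 call. Ligands and antagonists had 0 calls of 19 tested, receptors and Smads 0 of 26, and Smad2/3 targets 1 of 21, where 1.50% of all genes were called. The medians were -0.01, 0.08 and 0.34. At an unadjusted p below 0.05 there were 6, 3 and 7 genes, against 20.2% of all genes. Tgfbi, an extracellular matrix protein, was the call and was lower, with 155, 179 and 184 in E7 and 48.2 and 53.4 in the clones (a log2 change of -1.74, SE 0.36, adjusted p = 0.0445). Tdgf1, the Nodal co-receptor Cripto, had 23418, 24336 and 28668 against 23731 and 11722, Tgif1 a change of -0.11 and Ski of -0.13. Bmp targets had 0 calls of 12 (4 at an unadjusted p below 0.05). There Dusp9 had a change of -0.88 and Smad6 of 0.41, and neither passed.

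Among pluripotency genes few were called. Of 20 naive genes tested 1 fell and 0 rose, against 0.788% and 0.712% of all genes, with a median of -0.11. The fall was Dppa3 (Stella), with 247, 526 and 669.6 in E7 and 116 and 77.4 in the clones (a log2 change of -2.21, SE 0.44, adjusted p = 0.0382). Klf2, named after its values were seen and on chromosome 8, had 21882, 14218 and 18599 against 29674 and 43606 (adjusted p = 0.0972).

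Genes of formative and primed pluripotency had a median below that of all genes, at -0.65 over 13 tested genes (-0.55 and -0.55 in the clone libraries). There was 1 call, a fall, against 0.788% of all genes. Etv4, an Ets factor induced by Fgf and Erk, had 2450.4, 1711 and 1454 in E7 and 785 and 824 in the clones (a log2 change of -1.18, SE 0.25, adjusted p = 0.0460), and it was also the call among 20 Fgf and Lif genes. Pou3f1 (Oct6), named after its values were seen, had 251, 409 and 222 against 61.7 and 98.7 (adjusted p = 0.0524). In 5 of the 13 genes both clones were below all E7 libraries and in 0 above, against 15.2% and 17.6% of all genes.

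Imprinted genes had 3 falls and 0 rises among 21 tested, against 0.788% and 0.712% of all genes, and a median of -0.65 (-0.31 and -0.56 in the clone libraries). Mest, a hydrolase expressed from the paternal allele, had 4018, 3397 and 2182 in E7 and 1194 and 1006 in the clones (a log2 change of -1.50, SE 0.32, adjusted p = 0.0470). Sgce, sarcoglycan epsilon, had 112, 116 and 281 against 22.2 and 16 (a log2 change of -2.97, SE 0.50, adjusted p = 0.0234). Cdkn1c, the inhibitor p57, had 229, 316 and 151 against 40.5 and 54.7 (a log2 change of -2.21, SE 0.46, adjusted p = 0.0445). In 2 of the 21 (Igf2r, with 1926, 1993 and 2511 against 2689 and 4404, and Ndn, with 411, 414 and 314 against 495 and 552) the clones were above all E7 libraries, and neither passed. In 10 they were below, against 15.2% of all genes, among them Igf2 with 584, 661 and 199 against 94.5 and 85.4 (adjusted p = 0.0945, named after its values were seen). Cdkn1c was far higher in wild type, with 2287 and 1646, than in E7.

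Targets of Atf4, the factor of the integrated stress response, had a median of -0.62 over 24 genes (-0.71 and -0.53 in the clone libraries). There was 1 fall, against 0.788% of all genes. In 11 of the 24 both clones lay below all E7 libraries and in 1 above, against 15.2% and 17.6% of all genes. Chac1, which degrades glutathione, had 392, 198 and 120.1 in E7 and 31.8 and 50.7 in the clones (a log2 change of -2.36, SE 0.48, adjusted p = 0.0400). Atf4 itself, named after its values were seen, had 12559, 11196 and 8281 against 5772 and 4625 (adjusted p = 0.0526), and Asns, asparagine synthetase, 9288, 12302 and 12855 against 4834 and 5588 (adjusted p = 0.0800). Neither passed.

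Interferon-stimulated genes and nucleic acid sensors had a median of 0.55 over 23 tested genes and 0 calls, with 8 at an unadjusted p below 0.05, all higher (10.3% of all genes were higher at such a p). In 11 of the 23 both clones lay above all E7 libraries and in 1 below, against 17.6% and 15.2% of all genes. Oas1a, a sensor of double-stranded RNA, had 567, 429 and 653 in E7 and 1367 and 1289 in the clones, and Irf9 589, 559 and 979 against 1763 and 1493, with adjusted p of 0.107 and 0.0640. Both were named after their values were seen. The members with the most reads, not divided by length, were Ifitm2 and Ifitm1, with changes of 0.22 and 0.40.

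Matrix, adhesion and cytoskeleton genes had a median of 0.57 over 27 tested genes, with 1 rise and 1 fall, against 0.712% and 0.788% of all genes. Col4a1, a basement membrane collagen on chromosome 8, had 1173, 1420.3 and 1582 in E7 and 4465 and 2692 in the clones (a log2 change of 1.33, SE 0.28, adjusted p = 0.0445), and 0.98 with the chromosome's median taken out (adjusted p = 0.151). Its partner Col4a2, named after its values were seen, had 415, 524 and 971 against 2472 and 1639 and did not pass (limma, adjusted p = 0.0555). Vim (vimentin), likewise, had 11027, 8932 and 4205 against 13985 and 22707 and did not pass (adjusted p = 0.126). Lamb1 and Myl9, also named after their values were seen, lay below all E7 libraries without passing, with changes of -1.40 and -1.59. In 12 of the 27 both clones were above all E7 libraries and in 5 below, against 17.6% and 15.2% of all genes. Tpm2, a tropomyosin, fell from 301, 342 and 438 to 78.1 and 141 (a log2 change of -1.75, SE 0.35, adjusted p = 0.0382).

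Wnt genes had 2 rises and 0 falls among 16 tested, against 0.712% and 0.788% of all genes. Notum, which removes the lipid of Wnt proteins, had 832, 879 and 708 in E7 and 2749 and 5457 in the clones (a log2 change of 2.27, SE 0.43, adjusted p = 0.0306). Znrf3, a ligase that clears Frizzled receptors, had 893, 1017 and 788 against 1687 and 2189 (a log2 change of 1.10, SE 0.24, adjusted p = 0.0470). Both are negative regulators of the pathway. Others of the list lay the opposite way without passing: Axin2, also a negative regulator, had 226, 197 and 156 in E7 and 106 and 107 in the clones (adjusted p = 0.186), and Sp5 and Tcf7 had changes of -2.50 and -1.31 (named after their values were seen). In 4 of the 16 both clones were above E7 and in 5 below, against 17.6% and 15.2% of all genes. The list's median was 0.11.

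Among 28 G1/S genes Rbl2 rose and Cdkn1c fell, against 0.712% and 0.788% of all genes, and the median was -0.08. Among 18 oxidative stress and metal genes Mt1 (metallothionein, chromosome 8) had 3146, 2315 and 4639.7 in E7 and 7369 and 20064 in the clones (a log2 change of 1.91, SE 0.40, adjusted p = 0.0445), which did not pass with the chromosome's median taken out (adjusted p = 0.0691). Gpx3, a secreted glutathione peroxidase, had 529.9, 478 and 244 against 96.4 and 74.7 (a log2 change of -2.21, SE 0.39, adjusted p = 0.0276).

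The remaining lists had 0 calls (limma, adjusted p below 0.05). Their counts at an unadjusted p below 0.05 stand against 20.2% of all genes. Of p53 targets 3 of 21 had such a p, of apoptosis genes 3 of 22, of glycolysis and hypoxia genes 8 of 19, of cholesterol genes 0 of 22, of immediate early genes 3 of 14 and of Polycomb genes 5 of 18. Of germline genes it was 3 of 24, of DNA methylation genes 4 of 10, of 2-cell-like genes 1 of 13, of replication histones 1 of 7 and of the Blm complex and RecQ genes 2 of 12. The list medians ran from -0.45 for germline genes to 0.19 for immediate early genes. Glycolysis genes had a median of -0.40, but the clones differed: Ldha, lactate dehydrogenase, had 16627 and 50077 in the clone libraries and 34362, 34245 and 23950.0 in E7. Pgam1 had a change of -0.74.

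The 2 members of each such list with the most reads, not divided by length, were taken as examples, and none passed. Their log2 changes were -0.60 (Mdm4) and -0.64 (Ccng1) for p53, -0.72 (Mcl1) and -0.31 (Xiap) for apoptosis, and -0.50 (Hmgcs1) and 0.23 (Srebf2) for cholesterol. They were 0.68 (Jund) and 0.02 (Ier2) for immediate early genes, 0.02 (Phc1) and -0.19 (Jarid2) for Polycomb, and -0.91 (Dnmt3l) and -0.02 (Prdm1) for the germline. They were 0.18 (Uhrf1) and 0.15 (Dnmt1) for DNA methylation, -0.99 (Eif1a) and 0.12 (Zscan4f) for the 2-cell-like state, -0.52 (Hist1h2bc) and -0.29 (Hist1h1c) for histones, and -0.20 (Fancm) for the Blm complex.

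Markers of other cell types were few among the calls. Trophoblast markers had 3 rises of 11 tested (0.712% of all genes rose), Krt8, Krt19 and Plet1, the last with 115, 149.5 and 143 in E7 and 467 and 523 in the clones (a log2 change of 1.86, SE 0.35, adjusted p = 0.0306). The summed level of the trophoblast list was 3807 to 5837 in E7 and 6409.5 to 8599.5 in the clones, while Tpbpa had 0 reads in all 5 libraries and the list's median was -0.15. Krt8 and Krt19 carried the difference in the sum, with means of 733 and 242 in E7 and 2855 and 1421 in the clones. Tfap2c had a mean of 2427 in E7 and 1996 in the clones. In 4 of the 11 both clones were above all E7 libraries and in 1 (Gata3) below, against 17.6% and 15.2% of all genes. Primitive endoderm markers had 1 rise of 14 (Col4a1) and neuroectoderm markers 1 fall of 9 (Gap43), where 0.712% of all genes rose and 0.788% fell. The endoderm markers went both ways, with 4 higher and 4 lower at an unadjusted p below 0.05 (limma). Of all genes 10.3% were higher and 9.91% lower at such a p. Streak and mesoderm (9 tested) and feeder fibroblast markers (4 tested) had 0 calls, with 1 gene each at an unadjusted p below 0.05 (20.2% of all genes). Evx1 of the streak list had 58.7, 40.3 and 0 against 459 and 183 (adjusted p = 0.162), Kdr 74.8, 228 and 139 against 138 and 131. Of 12 fibroblast markers 7 were below 10 normalised reads in all 5 libraries, Col1a2, Col3a1 and Postn at 0, while S100a6 had a change of 1.18 and Pdgfrb of -0.18. The summed fibroblast list was 688 to 959 in E7 and 1305 to 1833 in the clones, and the streak list 371 to 543 and 607 to 862. The difference in the streak sum was about that of Evx1 alone, with means of 33 in E7 and 321 in the clones. Other streak genes lay both ways, such as Eomes (117 in E7 and 69.8 in the clones) and Mixl1 (14.2 and 53.3). In 3 of the 9 tested both clones were above all E7 libraries and in 0 below, against 17.6% and 15.2% of all genes. The part of such cells in the results was not tested. In bulk RNA fewer cells of a type and less RNA per cell cannot be told apart.

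Intron reads, which come from unspliced RNA, gave 15 calls among 11463 genes (0.131%), with 2 higher (0.0174%) and 13 lower (0.113%) in the clones, and 1006 genes at an unadjusted p below 0.05. Pla2g1b had 1737, 1535 and 1273 intron reads in E7 and 48.4 and 123 in the clones (a log2 change of -4.26, SE 0.37, adjusted p = 0.000373). Smarca1 had 171, 107 and 185 against 16.5 and 9.78 (a log2 change of -3.46, SE 0.42, adjusted p = 0.00794), and Rasgrp2 559, 431 and 457 against 29.4 and 108 (a log2 change of -3.06, SE 0.49, adjusted p = 0.0273). These 3 genes fell in introns as in exons. Gap43, Raet1a and Chrna7 also fell in introns, with log2 changes of -5.40, -3.42 and -2.51. Txlnb rose from 40.0, 27.5 and 44.3 to 233 and 246 (a log2 change of 2.68, SE 0.43, adjusted p = 0.0289). Map3k5, a stress kinase, rose from 98.9, 103 and 154 to 618 and 471 (a log2 change of 2.21, SE 0.37, adjusted p = 0.0337). The intron count was 73 without clone library 1, 9 without clone library 2, and 8, 2 and 6 without E7 libraries 1, 2 and 3.

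Introns moved with exons over the called genes. Of 85 rises also tested in introns, 84 had a positive intron change, with a median of 1.30 against 1.79 in exons. Of 84 falls, 82 had a negative intron change, with medians of -1.67 and -2.02. The intron median over all genes tested in both was 0.01. Exon and intron reads come from the same libraries, so differences between these libraries enter both. The exon change minus the intron change was not called in any of 11147 genes (0%, with 772 at an unadjusted p below 0.05). Its median was 0.49 over those rises and -0.36 over those falls, against 0.01 over all genes. The genes were picked by their exon change, which is part of this difference, so the picking alone shifts these medians in those directions. They therefore cannot show that exons changed beyond introns. Lats2 rose by 2.56 in exons with an intron change of 1.15, and Rbl2 by 1.65 with -0.02. Lin28a fell by 4.11 on the log2 scale in exons, with an intron change of -2.04 that did not pass (adjusted p = 0.289). To set introns beside exons, each intron library was assigned to the exon library of its group whose deviations from the group mean it followed most closely (r of 0.26 to 0.45 in E7 and 0.56 in the clones over 11147 genes).

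The calls were set beside libraries that took no part in them. TT-FHAgo2 cells, kept at 2.5 µg/mL for 48 h before the time course, are Blm-/-;Ago1,2,3,4-/-;CreERT2 cells with an Ago2 that doxycycline switches on, from which doxycycline was taken away for 96 h (n = 2 against 2 at 0 h) or to which it was given back at 2.5 µg/mL for 48 h (n = 2 against 2). Of the 94 rises in the clones, 93 (98.9%) were higher at 96 h and 0 lower, where 33.2% of genes were called higher and 33.1% lower. Of the 104 falls, 89 (85.6%) were lower at 96 h and 4 higher. After Ago2 was given back, 92 of the 94 rises (97.9%) were lower, against 32.3% of genes, and 91 of the 104 falls (87.5%) were higher, against 31.9%. The rises made up 2.13% of all genes called higher at 96 h. The time course and the rescue come from the same cells, and their groups also differ in time in culture.

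Named genes can be set side by side. Lats2 changed by 1.91 at 96 h and -2.01 when Ago2 returned, Rbl2 by 1.84 and -2.86, and Chit1 by 4.45 and -4.09. Lin28a changed by -3.11 and 3.37, and Gap43 by -3.20 and 3.86. Insm1, a strong fall in the clones, had 0.39 and -0.53, and Tnni3 had -0.16 and 0.35. Cdkn1a, Lefty1 and Lefty2, which did not pass in the clones, changed by 2.42, 2.74 and 2.51 at 96 h. Across 13138 genes the change in the clones and that at 96 h had a Pearson r of 0.56 (Spearman rho 0.51). Genes are not independent replicates, so this is a description.

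**Figure D4:**
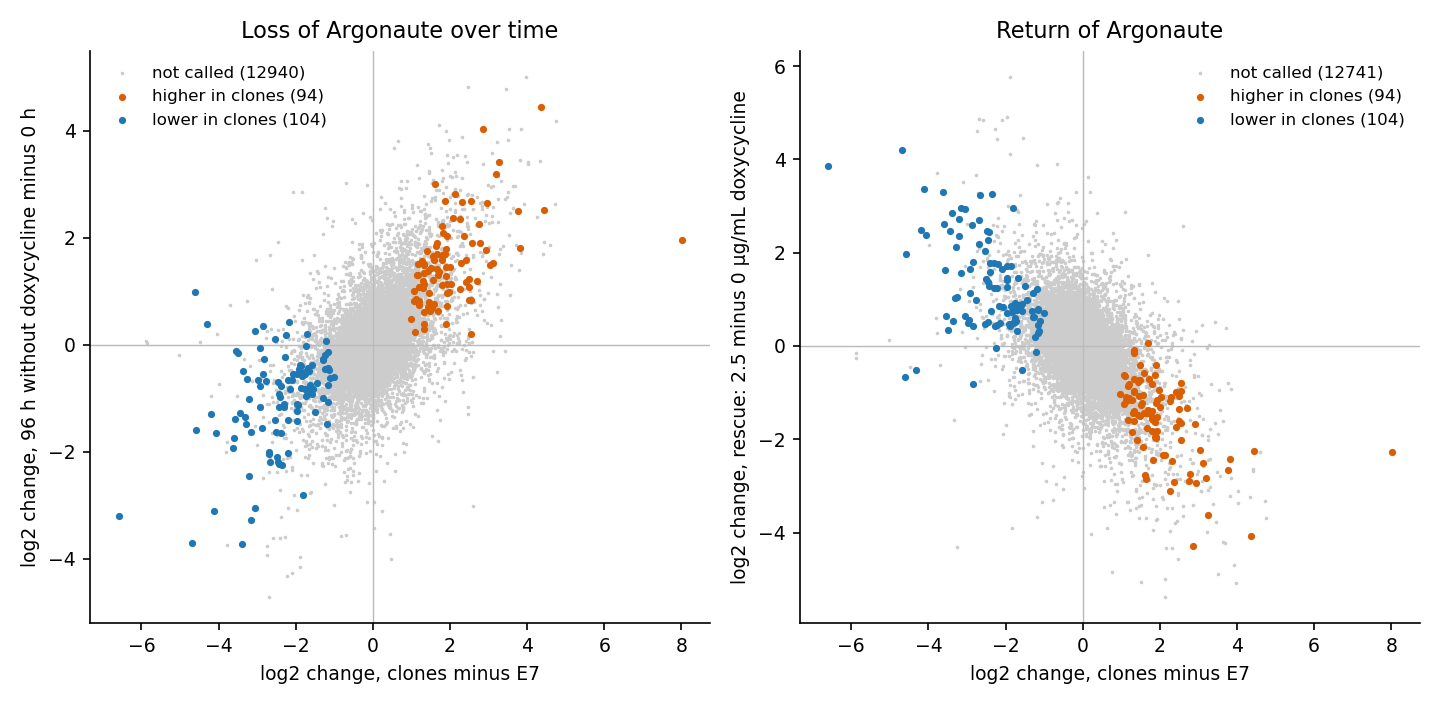
Log2 change of each gene in the clones against E7 (x axis) and, on the y axis, at 96 h against 0 h without doxycycline (left) or at 2.5 against 0 µg/mL doxycycline given back (right), with genes called higher in the clones in orange, lower in blue and the rest in grey. The orange points lie above 0 on the left and all but a few below 0 on the right, and most blue points the opposite way.

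Genes of chromosome 8 differed together between libraries. The 710 tested genes of chromosome 8 had a median of 0.27 in clone library 1 and 0.46 in library 2 against the E7 mean, relative to all other genes, while E7 libraries lay at 0.22, -0.17 and -0.05. E7 library 1 thus came close to clone library 1. B9 lay the other way, at -0.18 and -0.25, and wild type at -0.0011 and -0.09. Introns gave 0.28 and 0.46 in the clones. On this chromosome 15 genes rose (2.11%) and 0 fell, against 0.652% and 0.753% over the chromosomes other than 8, X and Y. With each chromosome's median taken out of each library, an analysis added after the data were seen, 3 of the 15 passed (Ido2, Lamp1 and Tbc1d9). The median of chromosome 8 at 96 h without doxycycline was -0.05.

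Genes of the X chromosome were lower in clone library 2. The median of 473 X-linked genes was -0.08 in library 1 and -0.51 in library 2, against -0.06 to 0.05 in E7, and introns gave -0.01 and -0.61. Of these genes 14 fell (2.96%) and 1 rose, and 10 of the 14 passed after the chromosome's median was taken out, Smarca1, Armcx2 and Tro among them. Chromosomes 13, 14 and 18 had medians of -0.34, -0.35 and -0.27 in clone library 2, against 0.02, -0.05 and -0.02 in library 1. Over all chromosomes the calls were 181 with each median taken out, 169 of them among the 198, and 162 with chromosomes 8, X and Y left out. Whether gene copy number or transcription differed was not tested.

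**Figure D5:**
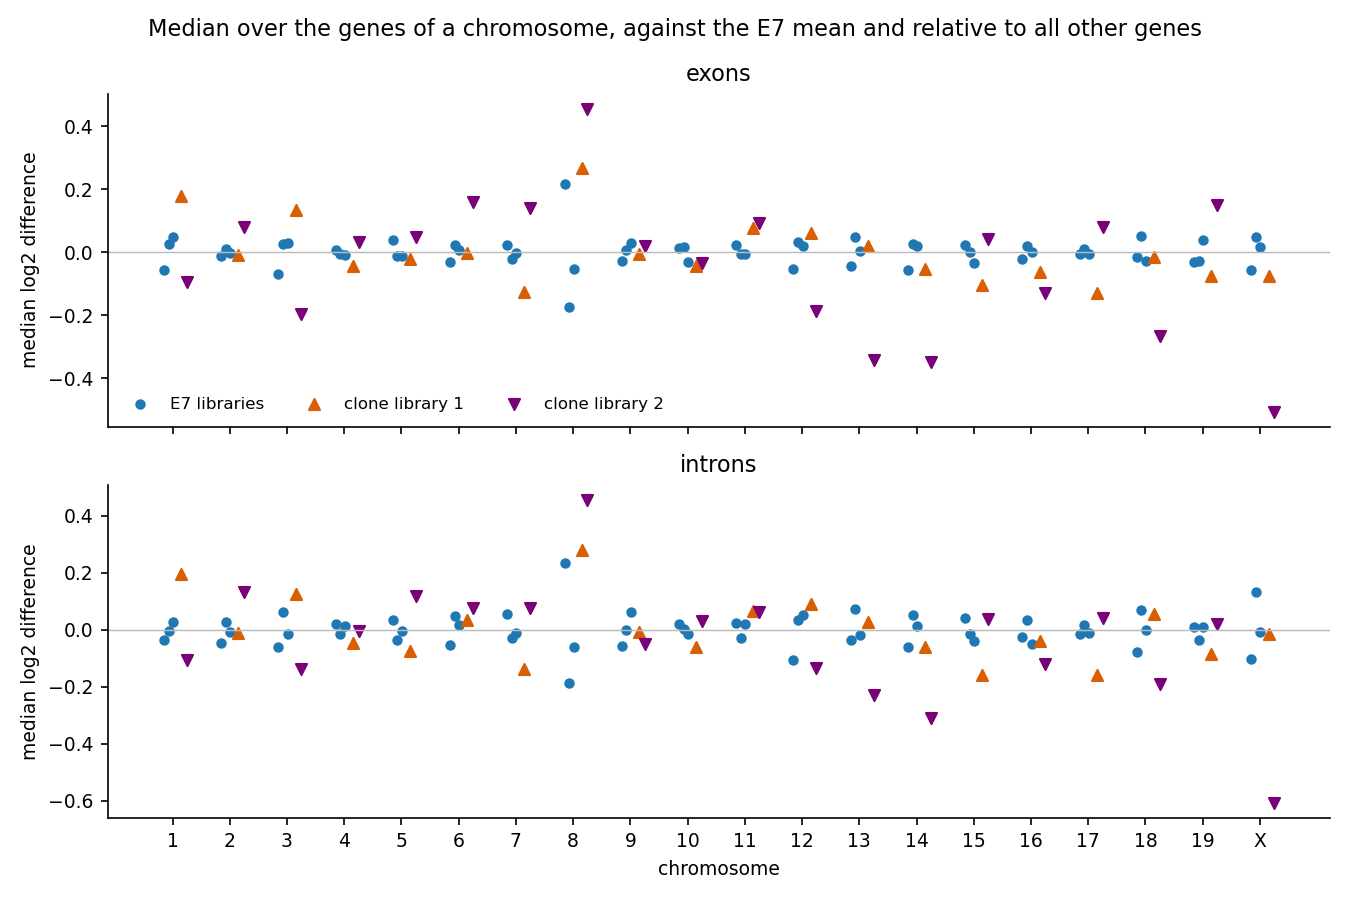
Median log2 difference from the E7 mean over the genes of each chromosome except Y, relative to the genes of all other chromosomes, in exons (top) and introns (bottom), for 3 E7 libraries (blue circles), clone library 1 (orange triangles) and clone library 2 (purple triangles). Of the chromosomes shown, 8 is highest in both clone libraries (0.27 and 0.46 in exons), and X is lowest in clone library 2 (-0.51).

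Y-linked genes were among those that differed most between the clone libraries. Ddx3y, an RNA helicase, had 1945, 3527 and 2470.0 in E7 and 0.964 and 987 in the clones, and Uba1y, a ubiquitin-activating enzyme, 479, 756 and 846 against 0.964 and 1366. Eif2s3y, a subunit of initiation factor eIF2, had 943, 2007 and 1641 against 0 and 616, and Uty, a histone demethylase homologue, 451, 834 and 541 against 0 and 324. Clone library 1 had 0 to 2 reads of each, and clone library 2 was below E7 in Ddx3y, Eif2s3y and Uty but above it in Uba1y. Of 7 Y-linked genes tested 0 passed (limma), and 4 had an unadjusted p below 0.05, against 1.50% and 20.2% of all genes.

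Other genes that separated the clone libraries were Mmp24, a membrane metalloproteinase, with 55 and 1509, and Apob, apolipoprotein B, with 980.4 and 76. Xlr3c had 361 and 21.3, Tmem56 369.9 and 29.3, Stk26 237 and 21.3 and Hist1h1c 351 and 16. Among 10341 genes with a clone mean of at least 100, 108 were over 4-fold higher in library 1 and 44 in library 2. E7 lay at 62.7, 48.3 and 86.9 for Mmp24 and 78.9, 110.4 and 76.7 for Apob, so in each of these 2 genes 1 clone library lay near E7. Xlr3c had 137, 36.8 and 84.3 in E7 and Hist1h1c 245, 117 and 28.1, between the clone libraries. For Tmem56 E7 had 127, 281 and 312 and for Stk26 162, 224 and 414, all above clone library 2.

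For 49 genes with very many reads the E7 libraries could not be told apart and only deposited means can be given, with no test. Genes came into this set through a high E7 mean, and such picking alone shifts the ratio of clone to E7 mean downward. That ratio had a median of 0.761 over them, which therefore cannot show a shared fall. It was lowest for Peg10 (0.162, from 35001 to 5654), an imprinted gene derived from a retrotransposon, Aldoa (0.407, from 45504 to 18539.6), a glycolytic aldolase, and Ncl (0.444), nucleolin. It was 1.43 for Pfn1, profilin, and 1.33 for Actb, cytoplasmic actin. Peg10 was alike in both clones, with 5462 and 5845, whereas Ncl had 55771 and 15612.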

How the data were processed

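The authors deposited, per the file headers, 1 column per group of normalised read signal on exons and on introns of each gene; the values are the mean over the libraries of a group of reads divided by a size factor. TopHat2 2.0.12, DESeq and the build mm10 are named in the submitters' processing notes; the read counter and gene models were not named there. Each group mean is a sum of whole reads times 1 step per library, and from the steps the normalised reads of each library were worked out with Python 3.11.15. In E7 101 genes had several solutions in exons. Where just 1 solution kept the E7 libraries within 5-fold of each other, it was taken. This assumption limits the spread of E7 in the genes so solved. It left 49 genes unsolved, which held 12.1% of the summed exon signal and were left out of tests. Libraries are numbered by depth, and the columns do not tell C62 from C86.

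Normalised reads were tested on the scale of log2(value + 1) with limma 3.58.1 in R 4.3.3 (trended prior, genes with a mean of at least 10, Benjamini-Hochberg adjustment over all genes, adjusted p below 0.05). All 9 libraries of the genetic series entered 1 fit, with no covariate, and the contrast was clones minus E7. A fold change on this scale understates the change of genes with few reads. The solving of reads and the test were checked on simulated data. The time course and rescue were fitted in their own tables. Labels do not say that the E7 libraries came from separate cultures, so p-values measure the spread between these libraries, which may be technical.

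Named genes were Ago1 to Ago4 and Blm, the 12 largest rises and falls among calls with a mean of at least 100 in the higher group and no overlap, and called members of each of 34 gene lists (where there were 0, the 2 with the most reads). To these were added the 5 largest intron rises and falls under the same conditions, the 3 highest and 3 lowest ratios among unsolved genes, Lefty1, Lefty2, Cdkn1a, Lin28a, Trim71, and the 5 genes that differed most between the clone libraries each way. Symbols of the form Gm or Rik were passed over. Some genes that the rule names are not reported here. The comparison, members and lists were chosen with earlier results of these data known. Alternatives were other pseudocounts, filters, scaling, weights, fewer groups and leaving out each library.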

Additional observations from a re-analysis of the deposited data

How the results depend on the processing

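No exon call changed sign under any alternative that was run, but the number of calls moved. Against 198 exon calls (94 higher, 104 lower), there were 18 (2 and 16) with array weights per library and 38 (14 and 24) with only the clone and E7 libraries in the fit. Leaving out 1 library gave 16 to 2141 calls (3 to 810 higher, 13 to 1331 lower), the lowest without E7 library 2 and the highest without clone library 1. Without a filter on low values 69 genes were lower. With voom on the recovered reads 187 were higher and 89 lower, so the share of higher calls rose from 94 of 198 to 187 of 276. Against 15 intron calls (2 higher, 13 lower), there were 42 (18 and 24) with only the clone and E7 libraries, 7 with voom (5 lower), and 2 to 73 without 1 library (0 to 4 higher, 2 to 69 lower). Higher intron calls were 1 without a filter and 4 with the trend on 3' UTR length taken out. Exons minus introns had 0 calls and 0 to 1 (higher) without 1 library, the 1 without clone library 1. In most other settings the counts were within 1.5 times, among them pseudocounts of 0.5 and 5 (194 and 255 exon calls) and TMM factors (202). Of the 52 named exon calls, 16 passed without E7 library 2, 23 without clone library 2, 27 without E7 library 1, 43 without E7 library 3 and 49 without clone library 1. The causes were not tested.

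Some genes that did not pass changed sign. With 1 library left out at a time the log2 change ranged from -0.046 to 0.42 for Ago2, from -1.37 to 0.52 for Ago3, from -0.37 to 0.15 for Tgif1, from -0.42 to 0.66 for Zscan4f and from -0.30 to 0.36 for Prdm1. The range was from -0.16 to 0.52 for Uhrf1, from -0.18 to 0.48 for Dnmt1, from -0.49 to 0.53 for Phc1, from -0.22 to 0.65 for Ifitm2 and from -1.59 to 0.31 for Ccng1. It ranged from -1.10 to 0.47 for Xiap, from -0.87 to 0.72 for Ldha, from -0.15 to 0.61 for Srebf2, from -0.11 to 0.18 for Ier2 and from -2.48 to 1.89 for Hist1h1c. The range was from -1.16 to 0.11 for Hist1h2bc, from -0.41 to 0.39 for Kdr, from -0.76 to 0.41 for Pdgfrb, from -0.077 to 0.21 for Trim71 and from -8.42 to 1.02 for Uba1y. It ranged from -0.22 to 4.54 for Mmp24, from -1.77 to 2.25 for Xlr3c, from -0.20 to 3.47 for Apob and from -2.89 to 0.72 for Tmem56. With array weights it was -0.31 for Zscan4f, 0.10 for Prdm1, -0.029 for Phc1 and -0.31 for Kdr. With the chromosome's median taken out it was 0.00037 for Prdm1, -0.061 for Phc1, -0.33 for Ier2, -0.023 for Kdr and 0.95 for Uba1y. With voom it was 0.0024 for Prdm1 and 0.29 for Hist1h1c.

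Voom, the 3' UTR trend, the chromosome medians and leaving out chromosomes 8, X and Y were chosen after seeing the data. The edgeR and DESeq2 alternatives were not run, since the tables hold group means and the reads were worked out from these. No paired analysis was possible because the columns carry no replicate numbers and the titles of the clones have none. With 2 clones and 1 library each, clone and library cannot be told apart, and Y-linked genes, the X chromosome and 3' UTR length separate these 2 libraries.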
